A study of Mus musculus with 4 samples.

Results

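The 9 genes described here encode the glutamate transporters of the plasma membrane, together with their close neutral amino acid relatives, and those of the synaptic vesicle: Slc1a1, Slc1a2, Slc1a3, Slc1a4, Slc1a5, Slc1a6, Slc17a6, Slc17a7 and Slc17a8. They were chosen by name, and every probe whose RefSeq accession belonged to one of them was read, which gave 13 of the 55681 different probes on the array and 9 of the 20660 genes that could be named. Gene expression was measured in the whole brain of C57BL/6J mice on postnatal day 1, after their dams had received either vehicle (Sham) or a titanium dioxide nanoparticle suspension (TiO2-H) into the trachea. The study asked whether this prenatal exposure altered gene expression in the brain of male and female offspring. The dose was 100 µg per mouse in 25 µL, and the day of dosing was given as gestational day 10.5 in the treatment protocol and as day 14 in the sample titles. RNA from 2 offspring of each dam was pooled, with 5 dams for Sham and 6 dams for TiO2-H, and the pools of either exposure and sex were each hybridized to 1 one-color array, where the intensity of a probe follows the abundance of the RNA it binds.

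Each group was thus 1 pool on 1 array, and the spread between animals was not measured. By the study's numbers of dams, the male and the female pool of an exposure came from the same dams. The p-values below therefore measure only the spread between pools that differ in sex label and share their litters, not the spread between litters. All 4 arrays lay on 1 slide, the Sham arrays in one row and the TiO2-H arrays in the other, so that exposure, litters and slide row cannot be told apart. Of the spots that were not controls, 56.2% to 61.2% were well above background on the 4 arrays, and no spot was saturated. Xist, which is transcribed from the inactive X chromosome, gave intensities of 17.9 on the Sham male, 276 on the Sham female, 347 on the labelled TiO2-H male and 5.36 on the labelled TiO2-H female array with probe A_52_P113537. The Y-linked Eif2s3y gave 3519, 419, 6.40 and 4345 in the same order. Both TiO2-H arrays therefore went against their sex labels, and the Sham female array carried Xist together with Y-linked signal, so that sexes are given below as labels only. The TiO2-H and the Sham array of one sex label are called the male-labelled and the female-labelled pair.

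Glutamate is the main excitatory transmitter of the brain. It is loaded into synaptic vesicles by the vesicular transporters of the Slc17 family and, once released, is cleared from the extracellular space by the sodium-coupled transporters of the Slc1 family, which sit mostly on astrocytes. Astrocytes convert it to glutamine, which returns to neurons and is turned into glutamate again. In newborn rodent brain this system is still maturing.

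Of the 13 probes, 12 were well above background on all 4 arrays and were compared, and these covered all 9 genes. The remaining one, probe A_52_P163021 for Slc17a8, did not reach well above background on a single array. Signals are given below as scaled signals, the ratio of a probe's intensity to the 75th percentile of its array, always with the Sham arrays (male, then female) before the TiO2-H arrays (labelled male, then labelled female). Levels of different probes cannot be set against each other. One probe, the dimmest for Slc1a2, was at least 1.5-fold higher after exposure on both labelled pairs, whereas the other 11 stayed between 0.909-fold and 1.21-fold. Counted against the study's thresholds of 1.5-fold and 0.67-fold, 1 of 12 probes passed the upper threshold in the male-labelled pair, where 4.08% of all probes compared did, and 1 of 12 in the female-labelled pair, where 2.65% did. None passed the lower threshold on either pair, against 3.29% and 3.31% of all probes. Between both Sham arrays, which did not differ in exposure, none of the 12 probes passed a threshold, against 3.17% of all probes for the upper and 3.15% for the lower threshold.

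**Figure D1:**
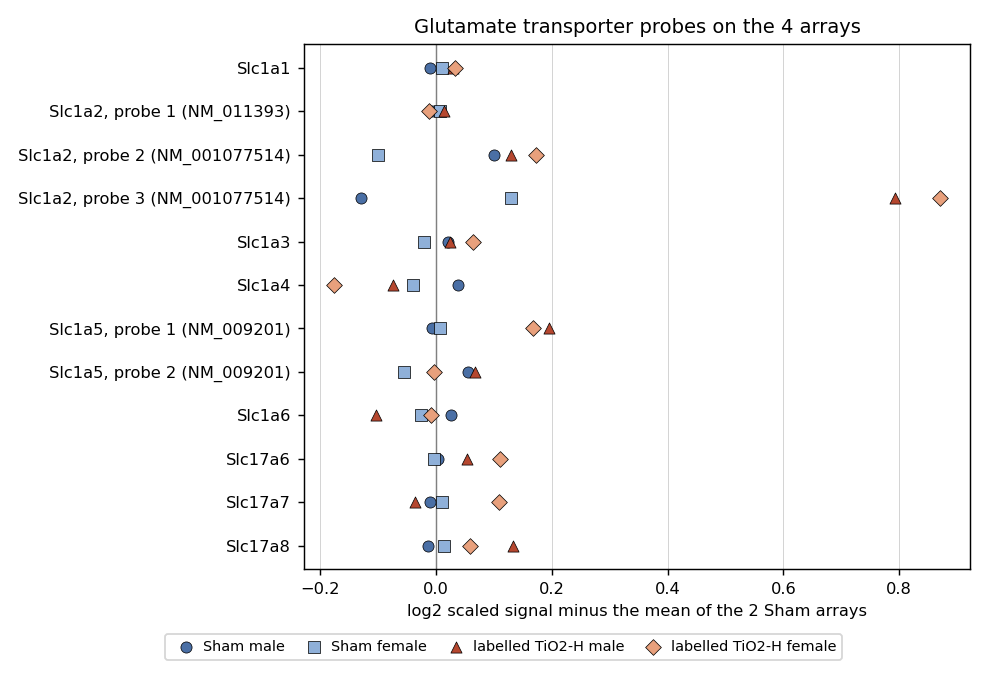
Log2 scaled signal of each of the 12 compared probes on the 4 arrays, shown on the x axis as the difference from the mean of both Sham arrays. Slc1a2 probe 3 lies at least 0.66 above the higher Sham array on both TiO2-H arrays, and the other probes lie close to 0.

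Slc1a2 encodes the main astrocytic glutamate transporter (GLT-1, also called EAAT2), which performs most glutamate uptake in the mature forebrain. The gene lies on chromosome 2, from 102658239 to 102790784 in GRCm38.p6, and 4 curated RefSeq transcripts are listed for it, of which 2 had probes on the array. Probe 1 (A_55_P1955412), for transcript NM_011393, gave scaled signals of 0.698, 0.705, 0.709 and 0.696. All 4 arrays lay together and the exposure groups overlapped. The fold change was 0.02 on the log2 scale in the male-labelled pair and -0.02 in the female-labelled pair. Across both TiO2-H and both Sham arrays, limma gave a log2 difference of 0.00 with a 95% interval from 0.916-fold to 1.09-fold (adjusted p = 0.992).

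The other transcript, NM_001077514, had 2 probes. Probe 2 (A_55_P2392625) gave scaled signals of 0.115, 0.1001, 0.117 and 0.121. Both TiO2-H arrays were above both Sham arrays, but the higher Sham array lay only 0.03 below the nearest TiO2-H array on the log2 scale, while both Sham arrays differed from each other by 0.20. The log2 fold changes were 0.03 and 0.27 in the male-labelled and the female-labelled pair, and 0.23 and 0.07 with each TiO2-H array set against the Sham array of the other label. The limma difference was 0.15 (SE 0.09), with an interval from 0.919-fold to 1.34-fold and an adjusted p of 0.484. It was 0.05 without the Sham female and 0.25 without the Sham male array.

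Probe 3 (A_55_P2136847), for the same transcript, gave scaled signals of 0.0596, 0.0713, 0.113 and 0.119. Both TiO2-H arrays were higher than both Sham arrays without overlap. The log2 fold change was 0.92 in the male-labelled pair (1.90-fold) and 0.74 in the female-labelled pair (1.67-fold). Because the sex labels were in doubt, each TiO2-H array was also set against the Sham array of the other label, and the 4 ratios ran from 1.58-fold to 2.0-fold. The difference between both Sham arrays was 0.26. In limma the difference was 0.83 (SE 0.11), with an interval from 1.40-fold to 2.26-fold, an unadjusted p of 0.00395 and an adjusted p of 0.351. The probe thus did not pass the adjusted test, and neither did any other probe on the array, since 0% of 35626 probes had an adjusted p under 0.05 in limma, although 13.9% had an unadjusted p under 0.05. Probes 2 and 3 gave intervals that did not overlap although they were assigned to the same transcript, and the difference between them was not tested.

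Probe 3 was dim, with 1 spot per array. The raw median pixel intensity of its spot was 114 and 118 for Sham and 172 on each TiO2-H array, over local backgrounds of 38, 34, 31 and 33 in array order, and none of these spots was marked as an outlier. The scanner software's errors of the single spots were combined with the arrays taken as independent. This put the error of the fold change at 0.30 (male-labelled pair) and 0.28 (female-labelled pair) on the log2 scale. Probes of similar level, within 0.5 log2 units, differed between the Sham arrays with a robust SD of 0.27, compared with 0.11 for all probes. At or above 1.5-fold on both labelled pairs were 0.315% of all probes, and 0.989% of those of similar level (42 of 4248). In all 4 ratios of a TiO2-H to a Sham array, 0.177% of all probes were at or above 1.5-fold. This last share was not computed for probes of similar level. With the background instead corrected by normexp on the median signals, the log2 fold changes were 0.44 and 0.39, below the threshold of 1.5-fold. This correction added an offset of 50, which by construction draws ratios of dim spots towards 1.

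**Figure D2:**
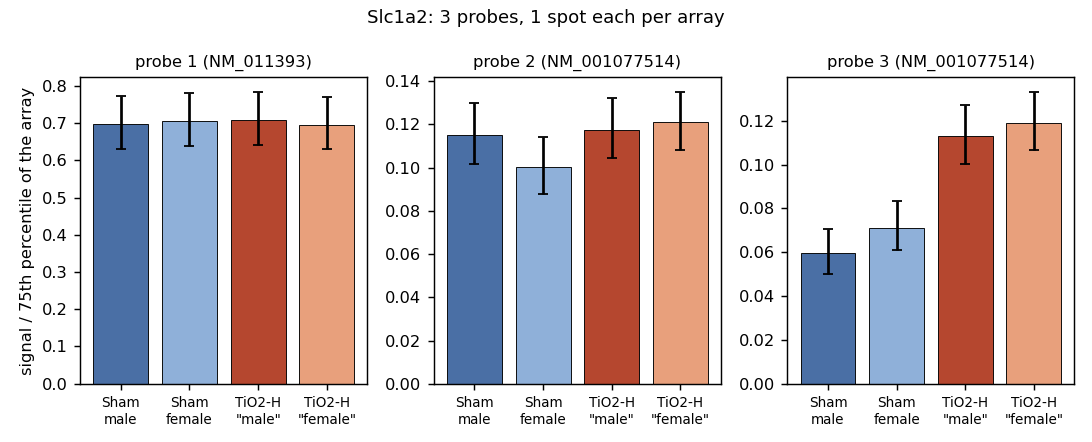
Scaled signal (intensity over the 75th percentile of the array) of the 3 Slc1a2 probes on each array, with the scanner software's error of a single spot as error bars. The y axes start at 0 and differ between panels. Probe 1 lies between 0.696 and 0.709, probe 2 between 0.1001 and 0.121, and probe 3 is at 0.0596 and 0.0713 on the Sham arrays and at 0.113 and 0.119 on the TiO2-H arrays, whose sex labels are given in quotation marks.

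Slc1a3 encodes the other astrocytic transporter (GLAST, EAAT1), which is also carried by radial glia and is prominent before and around birth. Its probe (A_51_P268697) gave scaled signals of 8.03, 7.81, 8.05 and 8.28. Both TiO2-H arrays were above both Sham arrays, but the labelled TiO2-H male array exceeded the Sham male array by only 0.0043 on the log2 scale. The limma difference was 0.04, with an interval from 0.936-fold to 1.14-fold and an adjusted p of 0.656.

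Of the neuronal members of the family, no probe passed a threshold or the test. Slc1a1 encodes EAAC1 (EAAT3), which is carried by neurons and also takes up cysteine. It was the best measured member, since its probe (A_51_P110759) was printed in 10 spots per array, of which 8 to 9 were used. The mean over spots was 3.77 ± 0.125 (SD, 8 spots) on the Sham male, 3.82 ± 0.0953 (9 spots) on the Sham female, 3.87 ± 0.119 (9 spots) on the labelled TiO2-H male and 3.88 ± 0.124 (9 spots) on the labelled TiO2-H female array. The spots of all arrays overlapped, and these errors cover spots of 1 pool, not animals. The limma difference was 0.03, with an interval from 0.937-fold to 1.11-fold (adjusted p = 0.729).

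**Figure D3:**
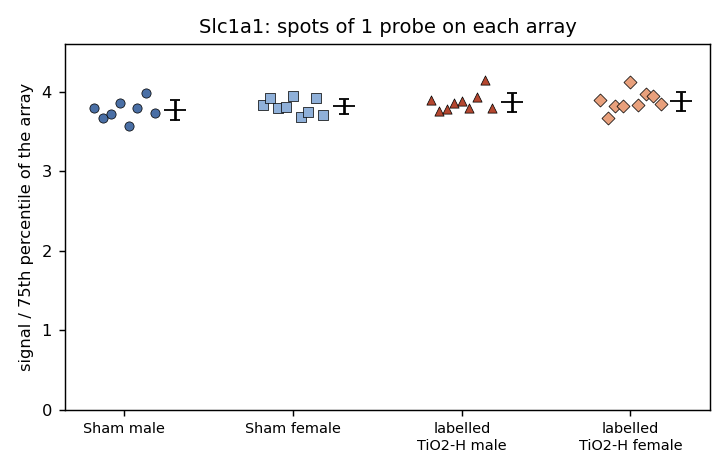
Scaled signal (intensity over the 75th percentile of the array) of each spot of the Slc1a1 probe on the 4 arrays, with the mean and SD over spots beside them. The spot means lie between 3.77 and 3.88, and the spots of all arrays overlap.

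Slc1a6 encodes EAAT4, known from cerebellar Purkinje cells. Its probe (A_51_P283016) gave scaled signals of 10.6, 10.2, 9.70 and 10.4. The groups overlapped, with the labelled TiO2-H male array lowest. The limma difference was -0.06, with an interval from 0.850-fold to 1.09-fold and an adjusted p of 0.658. Its sign turned without scaling between arrays (0.06). The 5 Purkinje cell markers examined (Pcp2, Calb1, Car8, Pcp4 and Skor2) summed to scaled signals of 32.0 and 32.5 on the Sham arrays. On the TiO2-H arrays they summed to 33.6 and 33.0. Pcp4 alone gave 86.5% to 87.4% of these sums. Of the 6 probes, both TiO2-H arrays lay above both Sham arrays for 4, below for 1 and overlapped for 1. Among all probes, 26.3% lay above and 26.9% below. The dimmer Car8 probe, A_66_P126640, was higher by 1.31-fold and 1.28-fold in the male-labelled and the female-labelled pair (limma adjusted p = 0.351). Its unadjusted p was under 0.05, as for 13.9% of all probes. The brighter Car8 probe, A_51_P392005, was higher by 1.07-fold and 1.16-fold (limma adjusted p = 0.373), and its unadjusted p was not under 0.05. Skor2 reached well above background on 3 arrays only.

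Slc1a4 and Slc1a5 encode the neutral amino acid transporters ASCT1 and ASCT2, which exchange serine, alanine, cysteine and, for ASCT2, glutamine. Slc1a4 (A_55_P2109589) gave scaled signals of 4.24, 4.02, 3.92 and 3.65 and was the single member with both TiO2-H arrays below both Sham arrays. The limma difference was -0.13 (SE 0.06), with an interval from 0.801-fold to 1.05-fold and an adjusted p of 0.444. Slc1a5 was read by 2 probes for the same transcript, and they differed. A_51_P453475 gave 0.268, 0.270, 0.308 and 0.302, so that both TiO2-H arrays were above both Sham arrays. The limma difference of this probe was 0.18 (SE 0.04), with an interval from 1.04-fold to 1.24-fold, an unadjusted p of 0.0195 and an adjusted p of 0.351. With normexp it was 0.06 (limma adjusted p = 0.561), and neither with normexp nor with sex as a term was the unadjusted p under 0.05. A_55_P2136318 gave 0.131, 0.121, 0.132 and 0.126, and the groups overlapped. Here the limma difference was 0.03, with an interval from 0.890-fold to 1.17-fold and an adjusted p of 0.822, and its sign turned with normexp (-0.10).

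The vesicular transporters load glutamate into synaptic vesicles: Slc17a6 (VGLUT2) mainly in thalamus, brainstem and other subcortical neurons and widely during development, Slc17a7 (VGLUT1) in cortex, hippocampus and cerebellar granule cells with a known postnatal rise, and Slc17a8 (VGLUT3) in scattered neurons that often release another transmitter. Slc17a6 (A_52_P8197) gave scaled signals of 5.22, 5.19, 5.40 and 5.62. Both TiO2-H arrays were slightly above both Sham arrays, which lay within 0.01 of each other on the log2 scale. The limma difference was 0.08 (SE 0.05), with an interval from 0.961-fold to 1.17-fold and an adjusted p of 0.466. Slc17a7 (A_51_P137913) gave 0.267, 0.271, 0.263 and 0.290, with the labelled TiO2-H female array highest and the labelled TiO2-H male array lowest. Its limma difference was 0.04, with an interval from 0.885-fold to 1.19-fold and an adjusted p of 0.807. Slc17a8 (A_51_P210350) gave 1.17, 1.20, 1.30 and 1.23, with both TiO2-H arrays above both Sham arrays. The limma difference of this probe was 0.10 (SE 0.05), with an interval from 0.959-fold to 1.19-fold and an adjusted p of 0.453. The second Slc17a8 probe had intensities of 28.3, 23.0, 25.9 and 25.4, not well above background, and no fold is given for it.

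Over the 12 probes, both TiO2-H arrays lay above both Sham arrays for 7, below them for 1 and overlapped for 4, while among all probes 26.3% lay above and 26.9% below. The 7 belong to 6 genes (Slc1a1, Slc1a2, Slc1a3, Slc1a5, Slc17a6 and Slc17a8), and probes of one array share its scaling and are not independent. The median log2 fold change of the 12 probes was 0.03 in the male-labelled and 0.07 in the female-labelled pair, against 0.01 and 0.00 for all probes compared. At an unadjusted p under 0.05 in limma were 2 of 12 probes, Slc1a2 probe 3 and Slc1a5 A_51_P453475, against 13.9% of all probes. For the 11 probes other than Slc1a2 probe 3, the 95% intervals reached from 0.801-fold to 1.34-fold at their widest, and 11 of 11 lay inside 1.5-fold in either direction. The smallest two-sided p that an exact permutation of 2 against 2 arrays allows is 0.333, so none is reported.

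**Figure D4:**
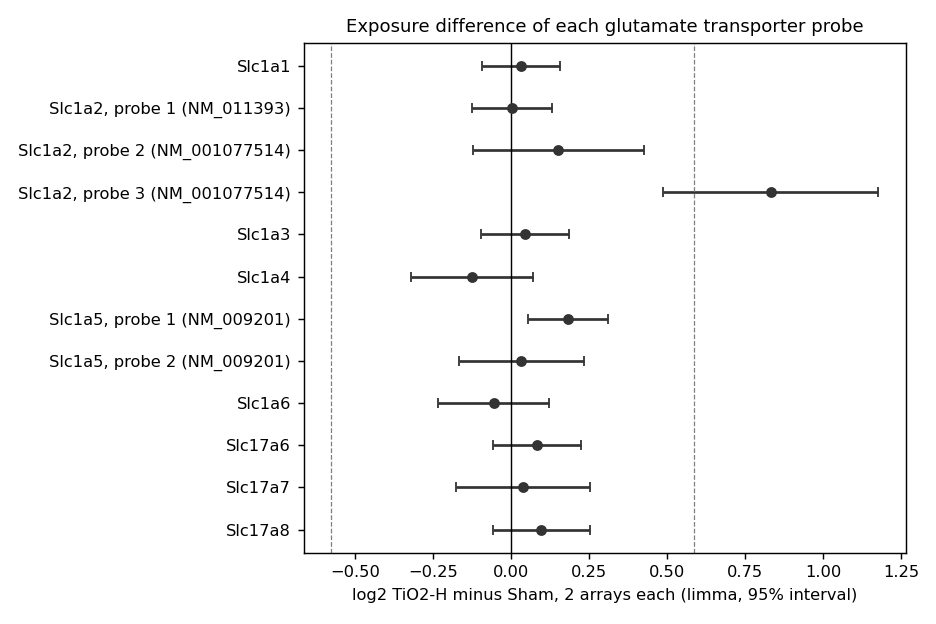
Log2 difference of both TiO2-H arrays from both Sham arrays for each of the 12 probes, with 95% intervals from limma fitted over all probes; dashed lines mark 1.5-fold and 0.67-fold. The interval of Slc1a2 probe 3 runs from 0.49 to 1.18, that of Slc1a5 probe 1 from 0.05 to 0.31, and the other 10 include 0.

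The enzymes and carriers that surround these transporters in the glutamate and glutamine cycle were read from a list of 21 genes with 27 probes, all of which were compared. Only 1 of the 27 probes passed a threshold, that of Ajuba, in the male-labelled pair. In this pair the upper threshold was passed by 4.08% of all probes. Ajuba, a scaffold protein known to bind the transporter encoded by Slc1a2, gave scaled signals of 0.264, 0.310, 0.399 and 0.288. The groups overlapped, and the log2 fold change was 0.60 in the male-labelled and -0.11 in the female-labelled pair. Both TiO2-H arrays lay above both Sham arrays for 8 probes, below for 7, and overlapped for 12, while among all probes 26.3% lay above and 26.9% below. No probe passed the adjusted test in limma (lowest adjusted p = 0.351), and 3 had an unadjusted p under 0.05, against 13.9% of all probes.

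Glul, the glutamine synthetase of astrocytes, gave scaled signals of 9.50, 9.44, 9.15 and 9.45, and the groups overlapped (limma difference -0.03, adjusted p = 0.779). Slc38a1, a glutamine transporter of neurons, gave 17.1, 18.1, 18.6 and 18.4 with its brightest probe, and both TiO2-H arrays were above both Sham arrays. They exceeded the higher Sham array by less than the Sham arrays differed from each other. Slc7a11, the light chain of the cystine-glutamate exchanger, gave 0.127, 0.118, 0.120 and 0.134, and its groups overlapped.

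The 3 probes with an unadjusted p under 0.05, together with Slc1a7, were picked from the list after their values were seen. Slc38a5, a glutamine transporter of glia, gave 2.69, 2.45, 3.25 and 3.62, with both TiO2-H arrays above both Sham arrays. Its log2 fold changes were 0.28 (male-labelled pair) and 0.57 (female-labelled pair), and limma gave a difference of 0.42 with an adjusted p of 0.351. Slc1a7, the remaining excitatory amino acid transporter (EAAT5, known from retina), gave 0.152, 0.128, 0.205 and 0.171, also without overlap. Its log2 fold changes were 0.43 and 0.42, with an adjusted p of 0.364 in limma. In the other direction, Slc25a12, a mitochondrial aspartate-glutamate carrier, gave 15.4, 15.5, 13.9 and 13.9, with both TiO2-H arrays below both Sham arrays. Its limma difference was -0.15 with an adjusted p of 0.351. Slc38a7, another glutamine transporter, gave 0.940, 0.908, 0.842 and 0.826, also with both TiO2-H arrays lower, and a limma difference of -0.15 with an adjusted p of 0.356. None of these genes passed a threshold in a labelled pair.

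**Figure D5:**
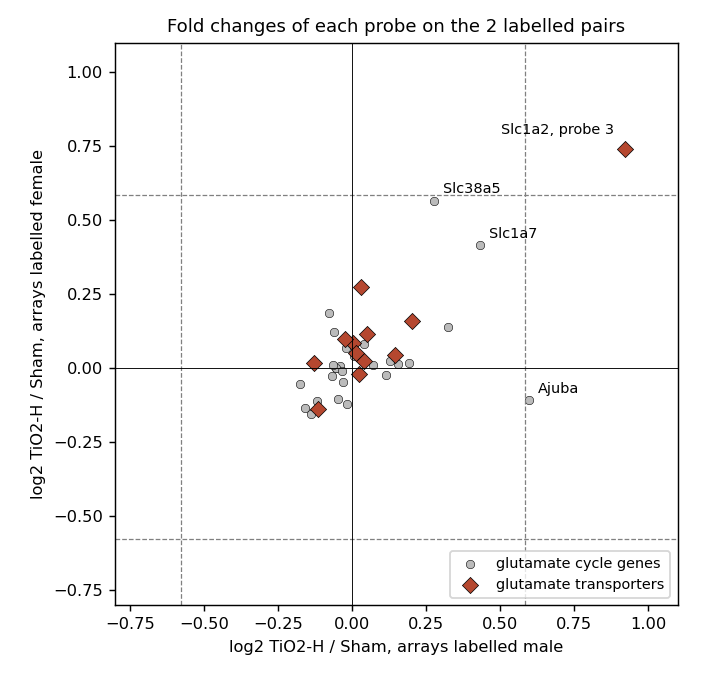
Log2 fold change of each probe in the male-labelled pair (x axis) and the female-labelled pair (y axis), for the 12 glutamate transporter probes and the 27 probes of the glutamate and glutamine cycle list; dashed lines mark 1.5-fold and 0.67-fold. Slc1a2 probe 3, at 0.92 and 0.74, is beyond 1.5-fold on both axes, and Ajuba, at 0.60 and -0.11, on the x axis alone.

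In RNA of whole brain, fewer cells of a type and less RNA per cell cannot be told apart, and the marker genes of the cell types that carry these transporters were therefore read on the same arrays. The 8 astrocyte and radial glia markers (Aldh1l1, Aldoc, Aqp4, Gfap, Gja1, Fabp7, S100b and Glul) were all above background and summed to scaled signals of 222 and 216 on the Sham arrays and 220 and 227 on the TiO2-H arrays. None of their 11 probes passed a threshold, and Aldoc and Fabp7 gave 83.5% to 85.2% of the sum. Both TiO2-H arrays lay above both Sham arrays for 4 of the 11 probes, below for 3, and overlapped for 4, while among all probes 26.3% lay above and 26.9% below. Of 2 Aqp4 probes, A_55_P2031939 was higher by 1.19-fold and 1.24-fold in the male-labelled and the female-labelled pair (limma adjusted p = 0.351), while the groups overlapped for the other. S100b was higher by 1.13-fold and 1.099-fold (limma adjusted p = 0.351), and both had an unadjusted p under 0.05, as had 13.9% of all probes. The 6 general neuronal markers summed to 350 and 353 on the Sham arrays and 347 and 362 on the TiO2-H arrays, and the 6 markers of cortical glutamatergic neurons to 43.3 and 46.2 against 46.5 and 46.9. The 6 markers of thalamus, midbrain and cerebellar granule lineage summed to 9.55 and 9.87 against 9.74 and 9.70. These sums hid probes that moved both ways. Of the 9 general neuronal probes, 3 were above Sham on both TiO2-H arrays, 2 below and 4 overlapped. These counts were 3, 2 and 3 for the 8 cortical probes, and 5, 3 and 3 for the 11 of the thalamus list. In limma 4, 2 and 4 probes of these lists had an unadjusted p under 0.05, and none passed the adjusted test (lowest adjusted p = 0.351). Serotonin neuron markers, of which there were 3, summed to 0.713 and 0.714 against 0.727 and 0.764, and the 3 markers of GABA neurons to 52.8 and 53.3 against 55.1 and 56.5.

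Markers of other cell types and tissues were read in the same way, and most of each sum came from 1 gene. Of 4 red blood cell markers, 3 were compared and summed to 62.6 and 60.1 on the Sham arrays and 51.6 and 51.9 on the TiO2-H arrays, while no probe was matched to Hbb-b1. Hba-a1 gave 97.8% to 98.0% of that sum, and of the 3 probes the TiO2-H arrays were lower without overlap for Hba-a1 and Alas2 and overlapped for Slc4a1. The 4 microglia markers summed to 11.8 and 11.5 against 12.8 and 12.9, of which Csf1r gave 69.4% to 70.9%, and of their 7 probes the TiO2-H arrays were above Sham for 4, below for 1 and overlapped for 2. The 3 endothelial markers summed to 7.13 and 6.79 against 7.84 and 7.77, of which Cldn5 gave 91.2% to 92.4%, and the groups overlapped for Pecam1 and Cdh5. No probe of these 3 lists passed the adjusted test in limma (lowest adjusted p = 0.351). Among all probes, both TiO2-H arrays lay above both Sham arrays for 26.3% and below for 26.9%. Some pituitary markers were higher on the labelled TiO2-H male array. Gh gave an intensity of 301 there and was called well above background on neither Sham array nor the labelled TiO2-H female array. The log2 fold change of Pomc was 0.64 in the male-labelled and -0.08 in the female-labelled pair. In the male-labelled pair, 4.08% of all probes passed the upper threshold. Cga gave an intensity of 32.5 on the labelled TiO2-H male array against 5.90 to 8.18 on the other 3. It was not called well above background on any array. Prl was at 5.97 to 8.20 on all 4 arrays. Whether pituitary tissue was in this pool was not tested. The 4 choroid plexus markers summed to 86.4 and 84.0 against 81.6 and 82.9. Only 1 probe for Folr1 fell below 0.67-fold in the female-labelled pair, as did 3.31% of all probes, from 0.239 to 0.120, with 0.123 on the Sham male array. The other, brighter Folr1 probe gave 2.66, 2.51, 2.52 and 2.58, and its groups overlapped (0.946-fold and 1.03-fold in the male-labelled and the female-labelled pair). The part of these values in those of Slc1a2 probe 3 was not tested.

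CpG content before the start sites was read as a property of the genes that the arrays did not measure. RefSeq windows of 250 bases upstream of a start site (GRCm38.p6) were found for 8 of the 9 genes, in 10 windows, and Slc1a5 had no entry. The dinucleotide CG, which reads the same on both strands, occurred 1 to 27 times per window, with a median of 6 over all 32851 windows. The fewest were in the window of Slc1a2 (chr2:102706188-102706437, plus strand), and 18.8% of all windows held as few. Its start site lies 48199 bases inside the gene and belongs to a later start than the first. No window at the first start of Slc1a2 was read, so the CpG content there is not given. The most were in the window of Slc1a1 (chr19:28834885-28835134, plus strand), at the first start of that gene, and 92.4% of all windows held as many or fewer. These are shown for that contrast, 5′ to 3′ with each CG in capitals:
Slc1a2: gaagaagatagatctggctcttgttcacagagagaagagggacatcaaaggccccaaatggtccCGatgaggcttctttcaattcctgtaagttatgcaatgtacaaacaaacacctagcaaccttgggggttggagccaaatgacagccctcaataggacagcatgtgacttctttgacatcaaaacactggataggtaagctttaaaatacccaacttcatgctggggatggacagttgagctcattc
Slc1a1: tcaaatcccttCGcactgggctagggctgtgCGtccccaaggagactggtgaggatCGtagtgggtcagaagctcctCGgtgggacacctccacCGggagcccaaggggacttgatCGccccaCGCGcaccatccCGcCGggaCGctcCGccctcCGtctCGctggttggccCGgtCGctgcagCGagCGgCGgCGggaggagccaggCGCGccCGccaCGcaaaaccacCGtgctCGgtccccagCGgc
Slc1a3 held 2, Slc1a4 16, Slc1a6 26, Slc17a7 9, Slc17a6 7 and 3, and Slc17a8 5 and 3. The start site of the Slc1a6 window lies 410 bases inside the gene. Those of the windows with 3 lie 2807 bases inside Slc17a6 and 21434 bases inside Slc17a8. Methylation of these windows was not analysed here.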

How the data were processed

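Total RNA pools were hybridized to Agilent one-color arrays. The deposited data were 4 scanner files and 1 joint table, both with the intensity that the authors processed with Agilent Feature Extraction 10.10.1.1, which subtracts background and removes spatial trends. The values of both were identical (largest difference 0). Spots marked as outliers were left out, log2 intensities of the spots of a probe averaged, and each array scaled to its 75th percentile, which was 810, 795, 867 and 871 in the order of the text. Probes well above background on no array of a comparison were left out of it, and other dim values were raised to the lowest signal well above background. Probes were named through their accessions with a RefSeq table of GRCm38.p6, which held 98.0% of the NM and NR accessions on the array. The array's files give no probe positions, so that exons were not analysed here.

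Fold changes within a labelled pair have no replicate check. Exposure was tested over all 4 arrays with limma 3.58.1 (R 4.3.3, lmFit and eBayes, two-sided, no sex term) with Benjamini-Hochberg adjustment over all 35626 probes compared, and the steps were tested on simulated data. The number of arrays limits the precision. Python 3.11.15, numpy 2.4.6 and pandas 2.3.3 were used for the other steps. The genes, lists and tests were chosen with earlier results of these data known. Named were all 9 genes with every probe, the sex-linked genes, the brightest probe of Glul, Slc7a11 and Slc38a1, and list or marker genes past a threshold; 2 genes of these lists are not reported here. The processing was varied by omitting the scaling, by quantile normalization, by use of the deposited table, and by normexp (offset 50) on median signals because no mean signal was in the files. Further alternatives were no floor, stricter and no filters, outlier spots kept, other rules for the probes of a gene, a 2-fold threshold, other pairings, a sex term, and each array left out.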

Additional observations from a re-analysis of the deposited data

How the results depend on the processing

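The counts of 1 glutamate transporter probe at or above 1.5-fold in the male-labelled and 1 in the female-labelled pair both became 0 with a 2-fold threshold, with only the brightest probe of each accession, with the mean of a gene's probes and with normexp on the median signals. By construction the settings on probes leave out or dilute Slc1a2 probe 3. Normexp added an offset of 50 to each spot, which by construction draws ratios of dim spots towards 1. How much of the drop came from this offset was not tested. Without scaling, which leaves both TiO2-H arrays brighter (log2 ratio of the 75th percentiles 0.10 and 0.13), the median log2 difference of the probes in limma was 0.16 and their median in the female-labelled pair 0.20. For Slc1a2 probe 3 the limma difference ranged from 0.42 (normexp) to 0.96 (without the Sham female array), with adjusted p from 0.160 to 0.531, and pairing across the sex labels gave 0.66 and 1.00. Signs near 0 turned in limma for Slc1a6 without scaling (0.058) and for Slc1a5 A_55_P2136318 with normexp (-0.10). With each array left out in turn, Slc17a7 ranged from -0.036 to 0.11, Slc1a2 probe 1 from -0.012 to 0.015, Slc1a2 probe 2 from 0.05 to 0.25 and Slc1a5 A_55_P2136318 from -0.024 to 0.088. Under all settings run, limma called 0 glutamate transporter probes after adjustment, while 1 to 5 had an unadjusted p under 0.05. The background share of 0.989% among probes of similar level was chosen after seeing the data. With the arrays paired by sex, as labelled or exchanged within TiO2-H, as a term in limma, Slc1a2 probe 3 had adjusted p of 0.492 and 0.531, and no call changed. Dim probes such as Slc1a2 probe 3 carry the largest errors, and single pools give no spread between animals.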
